A study of Mus musculus with 6 samples.

Results

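The genes described are 42 nuclear-encoded subunits of oxidative phosphorylation beyond complex I: 4 of complex II, 9 of complex III, cytochrome c, 13 of complex IV, 14 of ATP synthase (complex V) and the inhibitor of ATP synthase. They are subunits named in a list, out of 55471 genes in the table. The 10T1/2 line, fibroblasts from mouse embryos, was grown without treatment, and its polyA RNA was sequenced in 3 wild-type (WT) libraries and 3 libraries labelled Ranbp2 KO. Ranbp2 encodes a large protein on the cytoplasmic side of the nuclear pore, and the study was about mitochondria touching the pore. The knockout cells had been made with CRISPR/Cas9. Whether they are 1 clone or several is not given in the sources used here, so genotype and the history of a line cannot be told apart.

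Complex II (succinate dehydrogenase) passes electrons from succinate to ubiquinone, complex III passes them on to cytochrome c, and complex IV passes them to oxygen. Complexes III and IV pump protons across the inner mitochondrial membrane, and ATP synthase uses their return to make ATP. Complex II is encoded wholly in the nucleus, whereas complexes III, IV and ATP synthase join nuclear subunits, translated in the cytosol and imported, to a few subunits encoded in mitochondrial DNA. Proliferating fibroblasts use the widely expressed isoforms of these subunits, and some subunits have other isoforms in muscle, testis or lung.

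Libraries held between 32072817 and 46321967 expected counts. Ranbp2 itself stood at 294, 289 and 293 CPM (counts scaled to a common library size) under the KO label, against 219.6, 250 and 249 CPM in WT, a log2 difference of 0.28 (SE 0.073, adjusted p = 0.012). Because the targeted mRNA was not lower, these libraries are called KO-labelled throughout. Counts summed over a gene say nothing of which exons the reads came from. All 10 fibroblast markers were above 1 CPM. Their summed levels were 22100 to 25600 CPM in WT libraries and 27500 to 34500 CPM in KO-labelled ones. Without Fn1, the sums of the other 9 overlapped, at 16500 to 19400 and 16100 to 18100 CPM. Single markers among these still differed without overlap. Col3a1, Pdgfra and Dcn were higher in KO-labelled libraries, and Col1a1 and Pdgfrb were lower. Summed endothelial markers ran from 35.3 to 39.4 CPM in WT and from 20.8 to 24.8 CPM in KO-labelled libraries, nearly all of it Tek, while Cdh5 was at or under 0.193 CPM. Summed epithelial markers ran from 1.87 to 2.53 CPM in WT and from 6.06 to 8.94 CPM in KO-labelled libraries, nearly all of it Cdh1. The part of these marker genes in the results was not tested. In bulk RNA, fewer cells of a type and less RNA per cell cannot be told apart.

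The subunit mRNAs did not all move in the same direction. Of the 42 genes, 41 had enough counts to be tested; 8 were higher in KO-labelled libraries, 4 were lower and 29 did not pass the threshold, an adjusted p below 0.05 by edgeR's quasi-likelihood test with Benjamini-Hochberg adjustment over all 15454 genes tested. The higher ones were Sdhc, Uqcrh, Uqcr11, Cox4i1, Cox5b, Cox7a2l, Atp5h and Atp5o, and the lower ones Sdha, Uqcrc1, Uqcrfs1 and Cox8a. Changes were small: log2 differences (KO-labelled minus WT) ran from -0.35 for Uqcrfs1 to 0.53 for Uqcrh, and the median of the 41 was 0.11, beside 0.014 for all genes tested. Called members made up 29.3% of those tested, against 38.9% of all genes; higher calls were 19.5% against 17.6% of all genes, and lower calls 9.76% against 21.3%. The values of the groups did not overlap for 16 members (39.0%), against 51.4% of all genes. The shares called are near or under those of all genes.

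Summed over all 42 genes, the level was 5030 ± 66.3 CPM in WT libraries and 5222 ± 375 CPM in KO-labelled ones (mean ± SD, n = 3 each, as for all such values). The KO-labelled libraries gave 4810, 5542 and 5313 CPM, and the WT libraries 5000, 5106 and 4984 CPM. Library 1 thus lay below all 3 WT libraries, and KO-labelled libraries 2 and 3 lay above them. Atp5b weighs heavily in this sum, at 1108 CPM in library 1 and 1303, 1277 and 1250 CPM in WT. The sums of complexes II, III and ATP synthase in library 1 were also below all WT libraries. That of complex IV, at 997.7 CPM, was within the WT range of 991.8 to 1039 CPM. KO-labelled library 1 touches many results. It was the lowest of the 3 KO-labelled libraries for 32 of 41 members. The share of all genes with that order was not counted. The log2 ratio of library 1 to the mean of KO-labelled libraries 2 and 3 had a median of -0.147 for members. For 6819 other genes above 20 CPM that median was -0.035. Without KO-labelled library 1, 15 members were called higher (36.6% of those tested, against 15.1% of all genes in that fit). There were 2 lower (4.88% against 18.9%), and the median log2 difference of members was 0.18. Without KO-labelled library 2 the counts were 2 and 4, without library 3 they were 2 and 1, without WT library 1 they were 5 and 2, without WT library 2 they were 4 and 2, and without WT library 3 they were 8 and 6. Over all genes these 5 fits called 11.6% to 17.3% higher and 15.9% to 21.3% lower. Only Cox5b, Cox7a2l and Uqcrfs1 were called in each of these 6 fits. With upper-quartile scaling in place of TMM, 15 members were called higher and 4 lower, while higher calls over all genes went to 21.6% and lower ones to 17.8%.

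**Figure D1:**
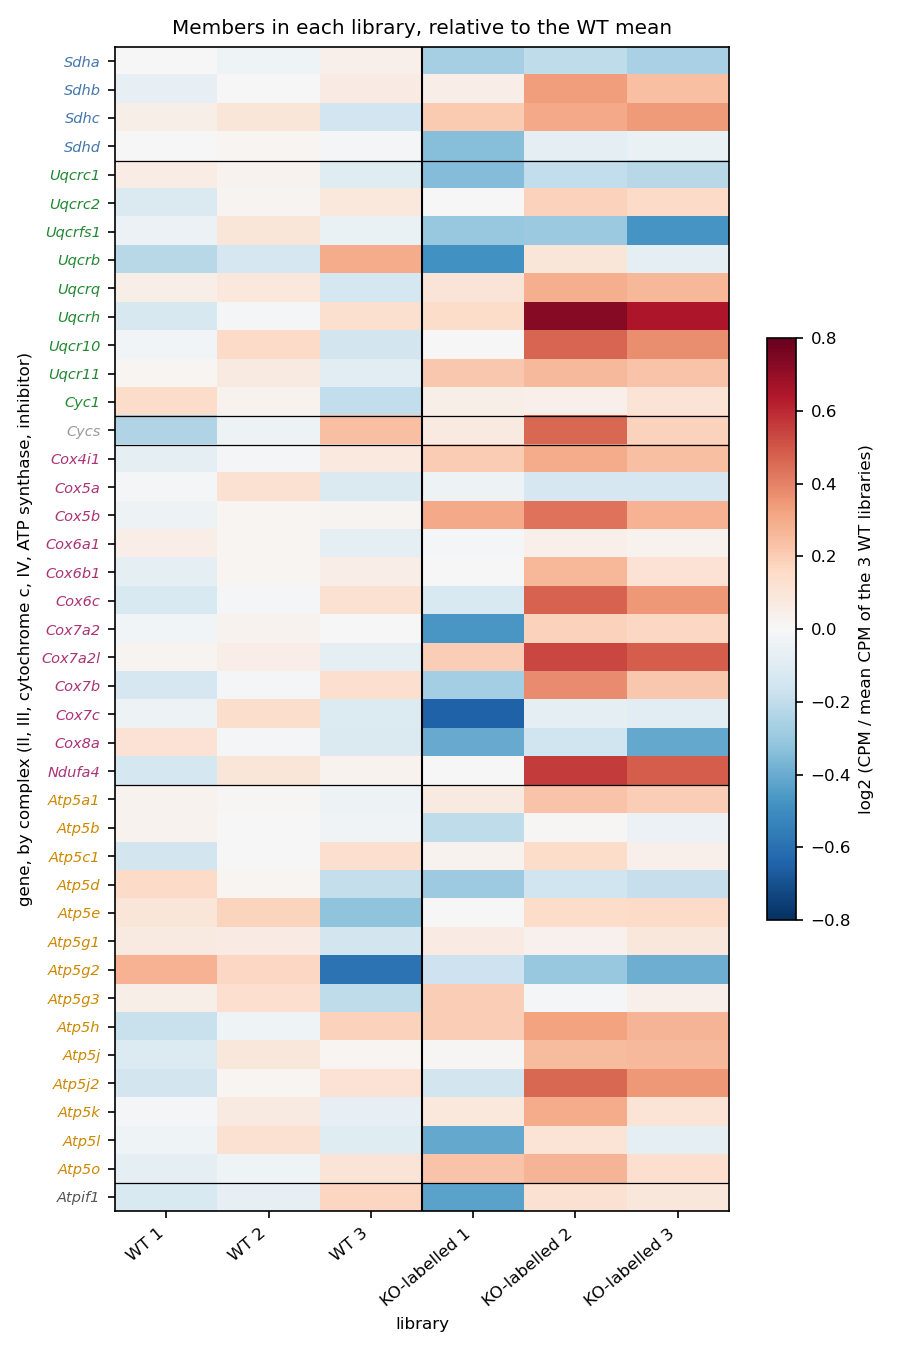
Level of each of the 41 tested members in each library, as log2 of CPM over the mean CPM of the 3 WT libraries (columns are libraries, rows are genes grouped by complex, red is higher and blue is lower). KO-labelled library 1 is lower than KO-labelled libraries 2 and 3 for many small subunits, and Uqcrh and Cox7a2l are higher in all 3 KO-labelled libraries than in any WT library.

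Within complex II the subunits went opposite ways. Sdha (ENSMUSG00000021577, chromosome 13, 74322254 to 74350280, minus strand) encodes the flavoprotein that oxidises succinate. It stood at 146, 152 and 147 CPM in KO-labelled libraries, against 175, 171 and 180.0 CPM in WT libraries. The highest KO-labelled value was under the lowest WT value, and the log2 difference was -0.24 (SE 0.061, adjusted p = 0.0118). Sdhc (ENSMUSG00000058076, chromosome 1, 171127165 to 171150603, minus strand), a membrane anchor that carries part of the haem and quinone sites, went up. Its KO-labelled values of 70.2, 74.96 and 76.8 CPM all exceeded its WT values of 62.6, 64.99 and 54.5 CPM, with a log2 difference of 0.29 (SE 0.082, adjusted p = 0.0211). Sdhb, the iron-sulfur subunit, lay just outside the threshold at 0.22 (adjusted p = 0.0743), and Sdhd, the other anchor, was at -0.15 (adjusted p = 0.194). The 4 mRNAs together came to 357.5 ± 1.09 CPM in WT libraries and 344.9 ± 17.9 CPM in KO-labelled ones. Sdha lost its call without KO-labelled library 3, and Sdhc without KO-labelled library 2 or 3.

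Complex III had 2 members higher, 2 lower and 5 not called, with a median of 0.11. Uqcrh (ENSMUSG00000063882, chromosome 4, 116066965 to 116075071, minus strand) encodes the acidic hinge protein beside cytochrome c1. Its values were 87.1, 130.4 and 123 CPM in KO-labelled and 72.2, 78.1 and 86.1 CPM in WT libraries. KO-labelled library 1 was close to the highest WT library and the other two were far above, so the difference of 0.53 (SE 0.14, adjusted p = 0.0136) was uneven within the group. Without KO-labelled library 1 it was 0.69 (adjusted p = 0.000753), and the call was lost without KO-labelled library 2, KO-labelled library 3 or WT library 2. Uqcr11 (ENSMUSG00000020163, chromosome 10, 80402997 to 80406830, minus strand), a small membrane subunit, gave 45.95, 47.4 and 46.3 CPM against 39.9, 41.6 and 37.1 CPM in WT. The groups did not overlap, with a tight KO-labelled group and a log2 difference of 0.24 (SE 0.071, adjusted p = 0.0254); the call was lost without KO-labelled library 2 or 3 or WT library 3, and without the count filter (adjusted p = 0.0993).

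Uqcrfs1 (ENSMUSG00000038462, chromosome 13, 30540308 to 30545362, minus strand) encodes the Rieske iron-sulfur protein, the last catalytic subunit to enter complex III. It was at 59.05, 59.5 and 52.6 CPM in KO-labelled libraries and 70.7, 78 and 70.3 CPM in WT libraries, with no overlap. Among members its log2 difference of -0.35 (SE 0.078, adjusted p = 0.00565) was the most negative. Uqcrc1 (ENSMUSG00000025651, chromosome 9, 108936633 to 108949623, plus strand) encodes the first core protein. Values of 88.7, 98.05 and 96.6 CPM in KO-labelled and 117, 115 and 105 CPM in WT libraries gave a difference of -0.25 (SE 0.072, adjusted p = 0.0194). Its groups did not overlap, but the call was lost without KO-labelled library 1 or 3 or without WT library 1 or 2. Of the members not called, Uqcrq (small ubiquinone-binding subunit) was at 0.22 (adjusted p = 0.0674), Uqcr10 at 0.29 (adjusted p = 0.0867), Uqcrc2 (second core protein) at 0.11, Cyc1 (cytochrome c1) at 0.067 and Uqcrb at -0.13. Summed, complex III came to 602.1 ± 11.4 CPM in WT libraries and 627.6 ± 56.6 CPM in KO-labelled ones.

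The 250 bases before the annotated start are shown for 4 called members. Uqcrh and Uqcrfs1 had the highest and lowest log2 differences. Uqcr11 and Atp5h were picked because their windows held matches to both motifs described below. They are RefSeq promoter windows of GRCm38.p6, written 5′ to 3′ on the gene's strand, with matches to the core of an NRF1 motif or an ETS motif in capitals, on either strand. NRF1 and the ETS factor GABP (NRF2) are transcription factors known for binding promoters of respiratory genes. The windows are chr4:116075071-116075320, chr13:30545317-30545566, chr10:80406822-80407071 and chr11:115419920-115420169, all on the minus strand.
Uqcrh: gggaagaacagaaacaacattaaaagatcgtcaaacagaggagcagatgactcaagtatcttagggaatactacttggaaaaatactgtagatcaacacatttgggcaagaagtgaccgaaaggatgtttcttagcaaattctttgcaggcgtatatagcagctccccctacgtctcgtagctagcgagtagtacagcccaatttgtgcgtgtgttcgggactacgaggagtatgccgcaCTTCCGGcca
Uqcrfs1: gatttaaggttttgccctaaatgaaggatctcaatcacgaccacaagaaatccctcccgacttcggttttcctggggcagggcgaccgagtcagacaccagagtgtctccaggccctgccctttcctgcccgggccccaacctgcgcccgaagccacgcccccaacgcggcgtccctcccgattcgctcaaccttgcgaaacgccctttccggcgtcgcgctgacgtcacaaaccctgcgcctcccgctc
Uqcr11: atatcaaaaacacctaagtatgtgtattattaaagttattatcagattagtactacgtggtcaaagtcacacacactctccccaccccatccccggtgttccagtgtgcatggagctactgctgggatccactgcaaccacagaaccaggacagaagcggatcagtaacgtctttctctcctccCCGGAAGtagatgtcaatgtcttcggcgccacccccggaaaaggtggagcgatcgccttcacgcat
Atp5h: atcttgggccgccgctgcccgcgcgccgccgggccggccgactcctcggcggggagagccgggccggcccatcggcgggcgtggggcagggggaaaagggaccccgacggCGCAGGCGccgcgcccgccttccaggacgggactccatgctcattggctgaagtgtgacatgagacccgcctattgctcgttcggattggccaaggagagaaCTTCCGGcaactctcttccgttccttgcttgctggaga
Uqcrh had an ETS match starting 10 bases before the start, and Uqcr11 one 66 bases before it; the longer window of Uqcr11, which runs past the start, held an NRF1 match too. Atp5h had an NRF1 match 140 bases and an ETS match 38 bases before the start. Uqcrfs1 had neither set of letters in this window. These 4 do not stand for all called members: of the 6 higher ones with a window, 3 held NRF1 and 3 ETS letters, and Cox5b and Cox7a2l held neither, while of the 4 lower ones 2 held NRF1 and 1 held ETS letters.

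Cytochrome c (Cycs), the mobile carrier between complexes III and IV, overlapped between groups, with 87.5, 115 and 94.8 CPM in KO-labelled and 70.5, 81.02 and 98.3 CPM in WT libraries. The log2 difference was 0.25 (SE 0.13, adjusted p = 0.161). Near-identical copies of Cycs elsewhere in the genome held 46% to 51.6% of the summed counts, and with them added the difference was 0.25 (adjusted p = 0.131).

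Complex IV had 3 members higher, 1 lower and 8 not called, with a median of 0.13; Cox7a1 was not tested. Cox5b (ENSMUSG00000061518, chromosome 1, 36691449 to 36693681, plus strand), a zinc-binding subunit on the matrix side, gave 92.5, 101 and 90.8 CPM in KO-labelled and 73.05, 75.8 and 76.3 CPM in WT libraries. The lowest KO-labelled value was well above the highest WT value, and the log2 difference of 0.34 (SE 0.068, adjusted p = 0.00349) had the smallest adjusted p of the members. Cox4i1 (ENSMUSG00000031818, chromosome 8, 120668222 to 120674207, plus strand) encodes the common isoform of subunit 4, a regulatory site for ATP. It was at 191, 204 and 196 CPM in KO-labelled and 158, 165 and 175 CPM in WT libraries. Again the groups did not overlap, with a difference of 0.25 (SE 0.067, adjusted p = 0.0165); the call was lost without KO-labelled library 2 or 3 or WT library 1 or 2, and without the count filter (adjusted p = 0.0644). Exons of Cox4i1 overlap those of Emc8 on the other strand by 154 bases, so without a stated strand setting some reads could belong to either gene; Emc8 was at 50.8 CPM in WT libraries and at 50 CPM in KO-labelled ones.

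Cox7a2l (ENSMUSG00000024248, chromosome 17, 83501918 to 83517330, minus strand), a relative of subunit 7a that links complexes III and IV into supercomplexes, was the other member of complex IV to go up. Its values were 114, 144 and 139 CPM against 101, 103 and 94.2 CPM in WT. KO-labelled library 1 lay between the WT libraries and the other two KO-labelled ones, and the log2 difference was 0.41 (SE 0.092, adjusted p = 0.00625). A near-identical copy held 12.9% to 20.9% of the summed counts, and with it added the difference was 0.38 (adjusted p = 0.00551). Cox8a (ENSMUSG00000035885, chromosome 19, 7215153 to 7217616, minus strand), the common isoform of the smallest subunit, was lower. It stood at 61.3, 72.8 and 61.1 CPM in KO-labelled and 87.9, 80.7 and 75.1 CPM in WT libraries, with a difference of -0.32 (SE 0.091, adjusted p = 0.0203) and no overlap. That call was lost without KO-labelled library 1 or 3 and without WT library 1 or 2.

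Cox7a2, the common isoform of subunit 7a, was at 41.9, 65.6 and 64.8 CPM in KO-labelled and 56.8, 58.7 and 57.6 CPM in WT libraries. KO-labelled library 1 was below and the other two above every WT value, and the log2 difference was -0.0077 (SE 0.15, adjusted p = 0.972). Cox7a1, the isoform of heart and skeletal muscle, had 5, 2 and 3 counts in KO-labelled libraries and 3, 0 and 0 in WT libraries. At no more than 0.131 CPM, it was too low for a comparison. Ndufa4, once assigned to complex I and now counted with complex IV, lay just outside the threshold at 0.37 (adjusted p = 0.0523). The others were Cox5a at -0.10, Cox6a1 at 0.018, Cox6b1 at 0.13, Cox6c at 0.26, Cox7b at 0.13 and Cox7c at -0.25. Copies held 30.4% to 44.1% of the summed counts of Cox7c and 2.45% to 5.91% of those of Cox6c. Complex IV summed to 1016 ± 23.6 CPM in WT libraries and 1121 ± 112 CPM in KO-labelled ones.

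ATP synthase had the largest summed CPM of the complexes, at 2919 ± 60.6 CPM in WT libraries and 2979 ± 166 CPM in KO-labelled ones. That sum is not scaled to gene length or to the number of genes, and Atp5b alone had a mean of 1277 CPM in WT libraries. Of the 14 members of ATP synthase 2 were higher, none was lower and 12 were not called, with a median of 0.089. Both higher members belong to the peripheral stalk, which holds the catalytic head still against the turning rotor, but Atp5pb, subunit b of the same stalk, did not pass at 0.17 (adjusted p = 0.192). Atp5h (ENSMUSG00000034566, chromosome 11, 115415689 to 115419962, minus strand), subunit d of the stalk, gave 112, 122 and 118 CPM in KO-labelled and 86.5, 95.4 and 111 CPM in WT libraries. WT library 3 nearly reached the lowest KO-labelled library, and the difference was 0.26 (SE 0.093, adjusted p = 0.0463). Atp5o (ENSMUSG00000022956, chromosome 16, 91925214 to 91931687, minus strand), the oligomycin-sensitivity protein at the top of the stalk, gave 125, 129 and 117 CPM against 102, 104 and 115 CPM. Here too WT library 3 came closest, and the difference was 0.21 (SE 0.072, adjusted p = 0.041). Each of these calls was lost in 5 of the 6 fits that left out a library, and held without WT library 3. Atp5o also lost its call without the count filter (adjusted p = 0.138).

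Among the other stalk and rotor members none passed. In the catalytic head, Atp5b (beta subunit) was at 1108, 1286 and 1237 CPM in KO-labelled and 1303, 1277 and 1250 CPM in WT libraries, a difference of -0.077 (adjusted p = 0.514). Atp5a1 (alpha subunit) was at 0.17 (adjusted p = 0.106), with no overlap between the groups. Atp5c1 (gamma) was at 0.074, Atp5d (delta) at -0.21 (adjusted p = 0.0929) and Atp5e (epsilon) at 0.10. Of the remaining stalk and membrane subunits, Atp5j was at 0.18, Atp5j2 at 0.24, Atp5k at 0.17 and Atp5l at -0.11. Near-identical copies held 27.0% to 34.5% of the summed counts of Atp5l. Atpif1, the peptide that blocks ATP hydrolysis by the enzyme, gave 38.8, 56.9 and 55.5 CPM in KO-labelled and 47.9, 49.96 and 58.8 CPM in WT libraries. Its groups overlapped, and the difference was -0.051 (SE 0.14, adjusted p = 0.804).

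Atp5g1, Atp5g2 and Atp5g3 encode the same mature protein, subunit c of the rotor ring, behind different import sequences. The last 78 codons of the coding sequences, 234 bases, are printed from the GENCODE M21 transcripts because they show what reads can tell the genes apart. Capitals mark the 63 positions at which not all of the 3 sequences match, and the sequences give the same residues. They are codons 59 to 136 of Atp5g1, 69 to 146 of Atp5g2 and 64 to 141 of Atp5g3.
Atp5g1: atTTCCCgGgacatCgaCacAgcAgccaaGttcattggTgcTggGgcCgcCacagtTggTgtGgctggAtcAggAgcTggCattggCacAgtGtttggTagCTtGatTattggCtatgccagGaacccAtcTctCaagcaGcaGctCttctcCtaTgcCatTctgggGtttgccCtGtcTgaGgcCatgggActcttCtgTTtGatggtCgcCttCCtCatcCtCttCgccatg
Atp5g2: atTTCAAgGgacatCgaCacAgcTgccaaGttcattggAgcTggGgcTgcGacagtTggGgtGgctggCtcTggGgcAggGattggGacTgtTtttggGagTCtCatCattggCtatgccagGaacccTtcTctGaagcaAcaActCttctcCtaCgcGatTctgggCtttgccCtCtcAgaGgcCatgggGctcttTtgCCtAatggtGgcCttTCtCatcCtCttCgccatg
Atp5g3: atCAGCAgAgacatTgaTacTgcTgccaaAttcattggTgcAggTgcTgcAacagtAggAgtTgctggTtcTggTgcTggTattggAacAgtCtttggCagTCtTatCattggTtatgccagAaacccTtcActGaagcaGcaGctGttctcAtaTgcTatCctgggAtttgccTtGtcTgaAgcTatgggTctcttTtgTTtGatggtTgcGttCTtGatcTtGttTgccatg
Atp5g1 and Atp5g2 were 84.6% identical here, Atp5g1 and Atp5g3 78.6%, and Atp5g2 and Atp5g3 77.4%. The longest stretch without a difference was 20, 11 and 8 bases in these pairs.

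Atp5g3 gave 209.5, 180.2 and 187 CPM in KO-labelled and 188, 200.2 and 159 CPM in WT libraries, a difference of 0.076 (adjusted p = 0.569). Atp5g1 gave 75.96, 74.1 and 77.1 CPM against 76.1, 75.8 and 65.6 CPM, a difference of 0.062 (adjusted p = 0.548). Both sets overlapped. Atp5g2 gave 29.4, 26.8 and 25.2 CPM against 40.03, 37.02 and 21.9 CPM, with WT library 3 below every KO-labelled library, and a difference of -0.28 (adjusted p = 0.259). Near-identical copies held 65.8% to 79.2% of its summed counts, the most of any member, and with them added the difference was 0.032 (adjusted p = 0.738). The level of Atp5g2 is therefore uncertain.

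Ratios within a library compare subunits that work as partners. Of 7 ratios computed, the groups did not overlap for Sdha to Sdhb and for Cox7a2l to Cox7a2. The log2 ratio of Sdha to Sdhb was 1.48, 1.26 and 1.30 in KO-labelled libraries and 1.86, 1.76 and 1.77 in WT libraries, a difference of -0.45. That of Cox7a2l to Cox7a2 was 1.45, 1.13 and 1.10 against 0.828, 0.817 and 0.711, a difference of 0.44. Each had p = 0.1 by an exact two-sided permutation test, the smallest that 3 against 3 allows, and 0.35 after Benjamini-Hochberg adjustment over the 7. Sdha and Sdhb lie on chromosomes 13 and 4, whose median log2 differences over all tested genes are -0.40 apart, and Cox7a2l and Cox7a2 on chromosomes 17 and 9, whose medians are 0.44 apart. With these gaps taken off, the ratios differed by -0.049 and -0.001, and the groups overlapped for both. For Atp5g1 to Atp5g2 and Atp5g3 to Atp5g2 the differences were 0.30 and 0.32 (exact permutation p = 0.3 for each). With near-identical copies added, they were 0.023 and 0.047. Those of Atp5g1 to Atp5g3, Atpif1 to Atp5b and Cycs to Cyc1 were -0.014, 0.014 and 0.18, with exact permutation p of 0.8, 1.0 and 0.5.

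**Figure D2:**
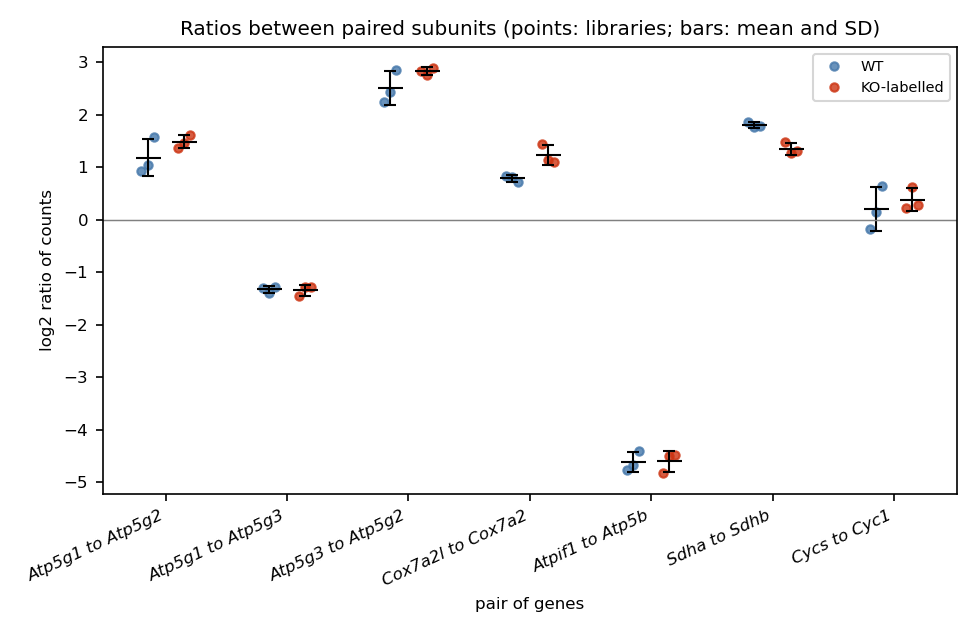
Log2 ratio of counts for 7 pairs of subunits in each library (blue points WT, red points KO-labelled, bars the mean and SD of 3 libraries). The pairs Cox7a2l to Cox7a2 and Sdha to Sdhb are those whose groups do not overlap.

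For 8 of the 12 called members the direction was also that of the median gene on their chromosome. Median log2 differences over all tested genes of a chromosome ranged among the main autosomes from -0.28 for chromosome 13 and -0.19 for chromosome 19 to 0.27 for chromosome 17 and 0.29 for chromosome 1. Uqcrfs1 and Sdha lie on chromosome 13, Cox8a on chromosome 19 and Uqcrc1 on chromosome 9 (median -0.17), so all 4 lower members are on chromosomes whose genes were lower as a whole. Cox5b and Sdhc lie on chromosome 1, Cox7a2l on chromosome 17 and Uqcrh on chromosome 4 (median 0.12). Uqcr11, Atp5h, Cox4i1 and Atp5o were higher although they lie on chromosomes 10, 11, 8 and 16, with medians of -0.082, -0.074, -0.014 and -0.014. On chromosomes with a median above that of all genes there were 13 members, of which 4 were called higher and none lower, with a median of 0.24. On the other chromosomes there were 28, with 4 higher, 4 lower and a median of 0.065.

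With the median of each chromosome taken off before the test, 7 members were called higher (17.1%, against 14.6% of all genes in that fit) and none lower (against 18% of all genes). Those 7 were Uqcrh, Uqcr11, Cox4i1, Atp5h and Atp5o, which had also been called without this step, and Uqcrq and Uqcr10, both on chromosome 11. Uqcrq then stood at 0.31 (adjusted p = 0.0204) and Uqcr10 at 0.38 (adjusted p = 0.0388). Calls were lost for Cox5b at 0.067 (adjusted p = 0.493), Cox7a2l at 0.15 (adjusted p = 0.241) and Sdhc at 0.013 (adjusted p = 0.921). Of the lower members, Uqcrfs1 stood at -0.057 (adjusted p = 0.615), Uqcrc1 at -0.071 (adjusted p = 0.485), Cox8a at -0.12 (adjusted p = 0.348) and Sdha at 0.057 (adjusted p = 0.516), the last with its sign turned. What moved whole chromosomes, and its part in these differences, was not tested.

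**Figure D3:**
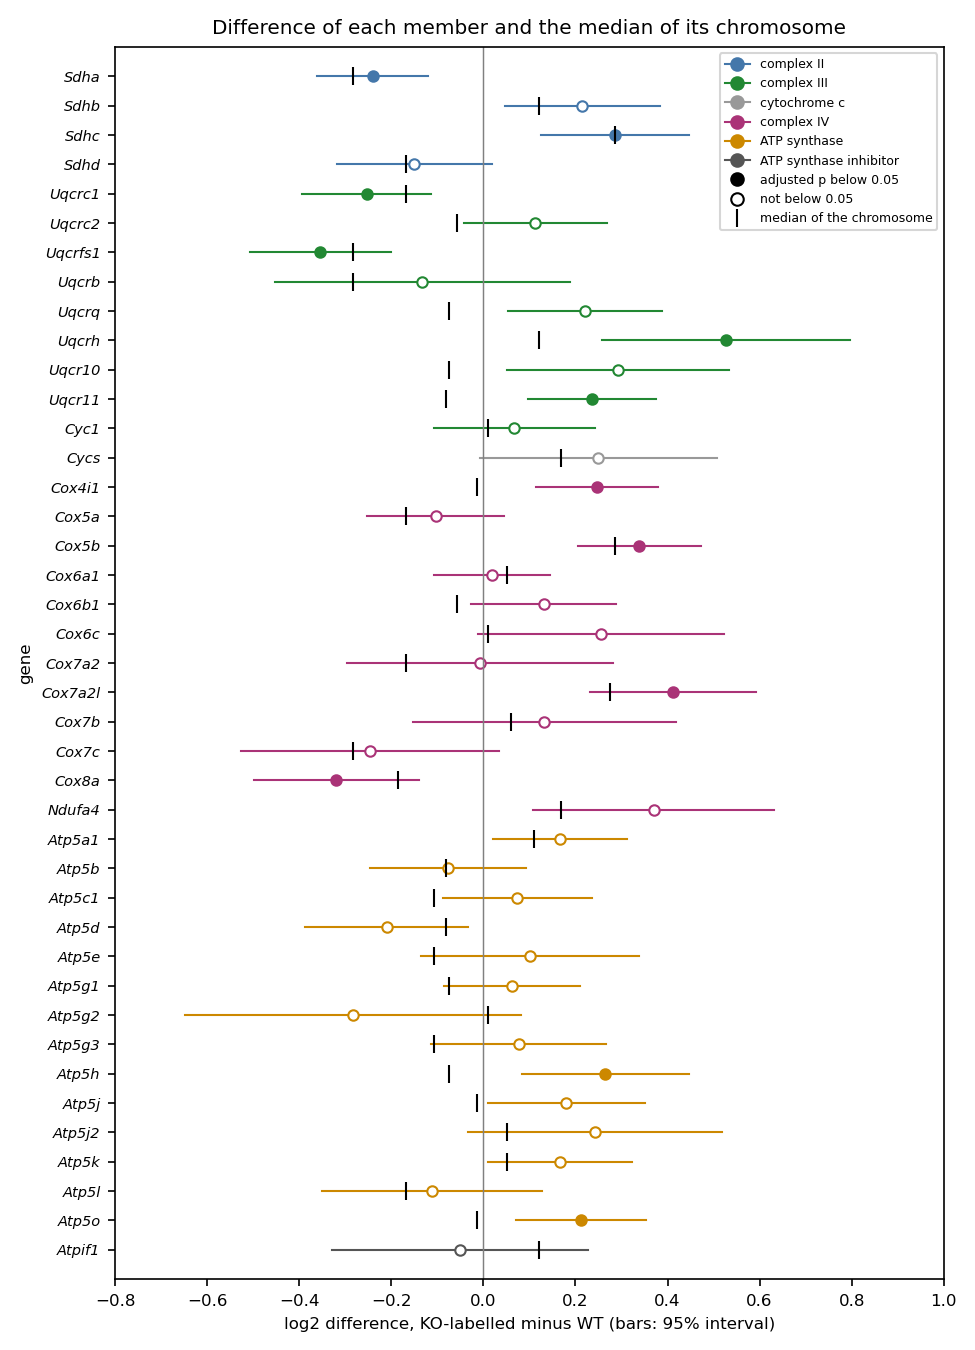
Log2 difference, KO-labelled minus WT, of the 41 tested members by complex (circles, filled where the adjusted p is below 0.05). Bars are an approximate 95% interval, from the SE and a normal quantile, and can be too narrow with 3 libraries per group. A tick marks the median of all tested genes of the same chromosome. The circles of Sdha, Sdhc and Cox5b lie near their ticks at -0.28, 0.29 and 0.29, and those of Uqcrh, Uqcr11 and Cox4i1 lie above theirs.

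The shortest subunits stood apart in KO-labelled library 1. Its CPM was at least 0.4 lower on the log2 scale than the mean of KO-labelled libraries 2 and 3 for 11 of the 41 members (26.8%), against 136 of 6819 other genes above 20 CPM (1.99%). Members with a coding length under 300 bases made up 8 of these 11, out of 14 such members (57.1%), with a median of -0.47. Among other genes that short, 17 of 101 (16.8%) were that low, with a median of -0.12. Between 300 and 450 bases it was 3 of 12 members and 31 of 289 other genes (10.7%), and from 450 bases up 0 of 15 members and 88 of 6429 other genes (1.37%). The lowest were Cox7a2 at -0.64, Cox7b at -0.57, Cox7c at -0.57, Atp5j2 at -0.55 and Uqcrh at -0.54, so both complex IV and other complexes were among them. Genes are not independent replicates, and these limits were set after the values were seen. The part of coding length in this was not tested. Among the members called higher without library 1 were Cox7b at 0.30 (adjusted p = 0.0447), Atp5j2 at 0.40 (adjusted p = 0.0114), Cox6c at 0.41 (adjusted p = 0.00923) and Ndufa4 at 0.52 (adjusted p = 0.00256).

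**Figure D4:**
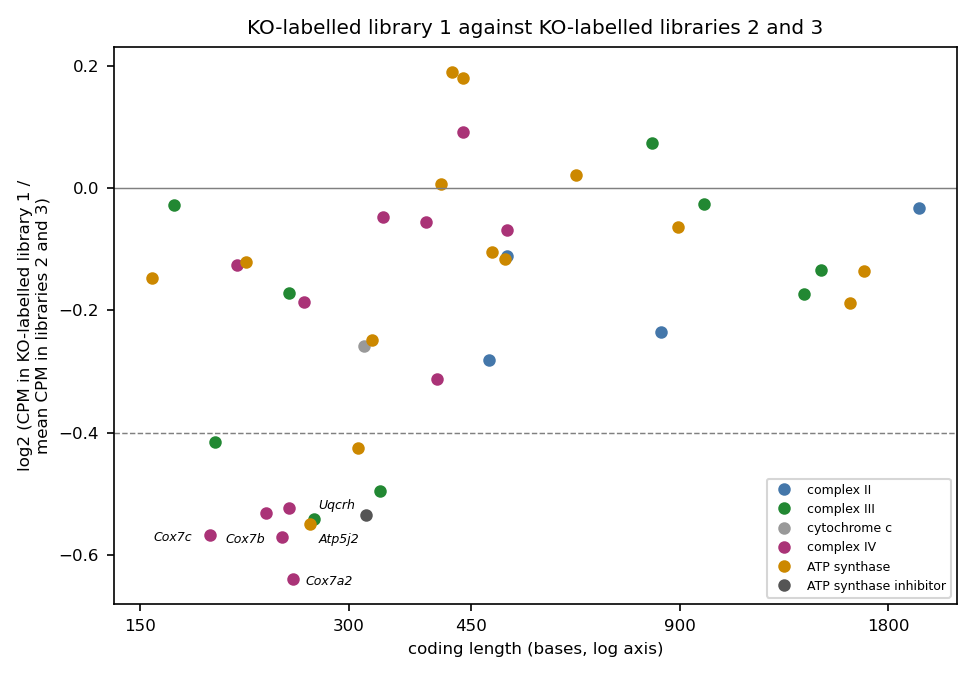
Log2 ratio of CPM in KO-labelled library 1 to the mean of KO-labelled libraries 2 and 3, for 41 members, against coding length in bases (log axis; colours give the complex). Members under 300 bases reach down to -0.64, and none from 450 bases up is below the dashed line at -0.4.

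Levels of different genes were compared as CPM per kilobase of merged exons. Atp5b led in WT at 301 CPM per kilobase, followed by Atp5a1 at 171, Cox8a and Cox6a1 at 131 each and Cox4i1 at 107. The lowest tested members were Atp5l at 9.76, Atp5g1 at 14.8 and Sdhc at 18.7, while Cox7a1 was at 0.045. Counts in near-identical copies, 27.0% to 34.5% of the summed counts for Atp5l, are not part of these levels. With coding length in place of merged exon length, Atp5b still led at 804 CPM per kilobase, Atp5g3 came next at 431 and Cox8a at 392, and Atp5l moved from rank 41 to rank 24, so the order beyond Atp5b depends on the length used. In KO-labelled libraries Atp5b and Atp5a1 were at 286 and 192 per kilobase of merged exons, Cox8a moved from rank 3 to rank 6 and Uqcrh from rank 13 to rank 8.

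In the RefSeq windows, 250 bases before to 50 after each start, 34 of the 42 members matched a window. The NRF1 letters CGCANGCG were in 17 of them (50%), against 12.5% of 17491 protein-coding genes and 9.2% of all 27025 genes with a window. The ETS letters CCGGAAG were in 12 members (35.3%), against 12.9% and 9.9%, and the YY1 letters AAGATGGC in 2 (5.9%), against 3.6% and 3.2%. Both strands were searched, 7 members held NRF1 and ETS matches together, and no matches of different motifs overlapped. Of the 10 called members with a window, 5 held NRF1 and 4 ETS letters, and of the 24 not called 12 and 8 did. The comparison genes were not limited to expressed genes, so the sets were not matched for level or base composition. Of 37 windows of members, 30 had bases 21 to 50 after the start near the start of an annotated transcript of the gene. A match is a run of letters, not a measured site.

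Shares called among genes that work with these subunits are to be read against the 38.9% of all genes, 17.6% higher and 21.3% lower. Of 36 complex I subunits, which feed electrons from NADH to ubiquinone, 14 were higher (38.9%) and 1 was lower (2.78%). In either direction 41.7% were called, with a median of 0.19. Among the 41 members tested the counts were 8 (19.5%) and 4 (9.76%) and the median 0.11. Ndufs1, Ndufb10, Ndufa10 and Ndufa11 had the smallest adjusted p, with differences of 0.48, 0.46, 0.40 and 0.36, and they lie on chromosomes 1, 17, 1 and 17. Of 38 assembly factors of complexes II to V, 10 were higher (26.3%) and 2 lower (5.26%), 31.6% in either direction, with a median of 0.039. Coa3, which stabilises newly made mt-Co1 protein, had the smallest adjusted p: it was at 9.03, 9.67 and 9.93 CPM in KO-labelled and 16.8, 15.5 and 17.1 CPM in WT libraries, a difference of -0.79 (SE 0.087, adjusted p = 9.1e-05). Lrpprc, which stabilises mitochondrial mRNAs, rose by 0.49, Cmc2 by 0.39 and Atpaf1, a chaperone of the ATP synthase head, by 0.39.

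The partners encoded in mitochondrial DNA varied widely between libraries. Of the 6, mt-Co1 at 0.52 and mt-Atp6 at 0.47 were called higher. The mt-Atp6 call rests on a WT mean of 158 CPM, because most of the summed counts were assigned to a nuclear copy. The same holds for mt-Co2 and mt-Co3, with WT means of 195 and 55.7 CPM. With annotated nuclear copies summed in, mt-Co1 stood at 12270, 16570 and 16020 CPM in KO-labelled and 8944, 9932 and 12320 CPM in WT libraries, so 1 WT library reached the KO-labelled group. All 6 overlapped between groups after summing, and mt-Atp6 came to 5976 ± 1340 CPM in KO-labelled against 5482 ± 1640 CPM in WT libraries. Of 3 further subunits of ATP synthase, Atp5mpl was higher at 0.46 (adjusted p = 0.0232), while Atp5pb and Atp5md, at -0.078 (adjusted p = 0.728), were not called. Of 13 genes of the tricarboxylic acid cycle, Fh1, which takes the product of complex II onward, was the only one called, at 0.41 (adjusted p = 0.000855), and it lies on chromosome 1.

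Among 9 nuclear regulators of respiratory genes, 2 were higher and 2 lower. Ppargc1a, a coactivator known for driving mitochondrial gene expression, was at 6.78, 5.72 and 6.86 CPM in KO-labelled and 0.337, 0.174 and 0.309 CPM in WT libraries, a log2 difference of 4.56 (SE 0.24, adjusted p = 6.85e-07). Its relative Ppargc1b was at 1.62, 1.62 and 2.08 CPM against 0.385, 0.37 and 0.238 CPM, a difference of 2.40. Both remained low beside most subunits. Esrra, the nuclear receptor with which they act, was at 11.2, 9.91 and 10.2 CPM against 19.6, 20.9 and 17.2 CPM and fell by 0.88 on the log2 scale (adjusted p = 9.95e-05). Pprc1, the third member of the coactivator family, fell by 0.40. Of 8 isoforms known from muscle, testis or lung, 1 was tested, Cox6a2 at 0.12 (adjusted p = 0.863); Cox8b and Cox8c had no counts and Cox4i2 was at or under 0.169 CPM.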

How the data were processed

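The authors deposited expected counts per gene, estimated with RSEM from reads of polyA RNA, per the submitters' processing notes; these list cutadapt and GRCm38 too. Neither versions, aligner nor strand setting were found in the labels. Of all values, 17.9% are not whole, since RSEM divides reads that match several genes, so genes with near-identical copies or overlapping genes are uncertain. Of the identifiers, 55230 matched GENCODE M21 (GRCm38; positions are 1-based) and 241, with at most 0.00192% of any library's counts, did not; of 2 models named Atp5o, the other had no counts.

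Counts were rounded, filtered with filterByExpr (minimum count 10, minimum total 15), scaled with TMM and tested two-sided with edgeR 4.0.16 (quasi-likelihood F test, R 4.3.3) across 15454 genes, with genotype as the only term and Benjamini-Hochberg adjustment. SE came from the F statistic. CPM use TMM-scaled library sizes. Near copies were found with BLAST at 95% identity or more over at least 100 bases (annotated pseudogenes) or 300 bases (other genes). On simulated counts of 14887 tested genes for this comparison, 35 of 65 genes changed 1.5-fold, 51 of 67 changed 2-fold and 62 of 66 changed 4-fold were called, with 17 false calls. Far fewer genes were changed there than were called in the data, and the largest change of a tested member was 1.44-fold (Uqcrh). These rates therefore do not say how often changes of the members' size are found or falsely called.

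The labels call the libraries biological replicates but do not say how cultures were separated, so the p-values reflect only how these libraries vary, which may be technical. No pair matched within sampling noise. Members and gene lists were chosen with earlier results of these data known. All members are named. Values per library are given for called members and for Cycs, Atpif1, Atp5b and the subunit c and 7a genes. Of each other list up to 4 genes with the smallest adjusted p are named, some of them with values per library. Alternatives tried were other scalings (DESeq2 1.42.0 size factors, library size alone, upper quartile), DESeq2's Wald test, other filters, leaving out each library, a replicate block, a chromosome offset and added copies.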

Additional observations from a re-analysis of the deposited data

How the results depend on the processing

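The median difference of members stayed positive under all 16 other settings, from 0.075 to 0.18, but without the count filter it was 0.088 beside 0.074 for all genes. Adding near-identical copies, and taking chromosome medians off the ratios, were chosen after seeing the data; the latter turned the difference of Cox7a2l to Cox7a2 to -0.001 and of Atpif1 to Atp5b to -0.188, and left Atp5g3 to Atp5g2 at 0.44 with groups that did not overlap. Among 656 member values, 548 kept direction and side of the threshold, 45 lost a call, 35 gained one, 27 uncalled values changed sign, and Sdha turned to 0.057 with the chromosome offset. No member was called under every setting. With upper-quartile scaling 15 members were called higher. Without the count filter 8 were higher (19%, against 8.98% of the 30473 genes in that fit) and 7 lower (16.7% against 12.9%). Cox4i1, Uqcr11 and Atp5o lost their calls without the count filter. With the chromosome offset, which takes each chromosome's median off by construction, 0 were lower and 7 higher. Leaving out 1 library gave 2 to 15 higher and 1 to 6 lower; it moved the log2 difference of the ratio Atp5g1 to Atp5g3 from -0.051 to 0.046, of Atpif1 to Atp5b from -0.061 to 0.129 and of Cycs to Cyc1 from -0.01 to 0.401. The cause was not tested.

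The replicate block gave 6 members higher (14.6%, against 14.3% of all genes in that fit) and 2 lower (4.88% against 18%). Cox4i1, Uqcr11, Atp5o, Sdha and Uqcrc1 were not called under the replicate block. Same-numbered libraries deviated with correlations of 0.022, -0.081 and -0.034, and different-numbered ones with -0.095 to 0.152. No shared deviation by number was seen, but this cannot tell whether same-numbered cultures were handled together. Cox7a1, at 0 to 5 counts, is limited by depth.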
